A study of Mus musculus with 6 samples.

Results

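Pyruvate oxidation and the tricarboxylic acid cycle were followed through 34 nuclear genes in the hearts of endotoxaemic mice. The genes were chosen by name and found on the arrays through the transcript accession of each probe. All 34 had a probe and all 34 entered the test, out of 14701 genes tested and 22815 genes with a named probe. Heart RNA was measured on 1-colour Agilent mouse expression arrays, with 1 array for each mouse. Every mouse was a 10-week-old C57BL6 male that was starved for 16 h and then given 20 mg/kg lipopolysaccharide (LPS), the endotoxin of Gram-negative bacteria, into the peritoneum. The control group was 3 mice given saline at 3 and 24 h after LPS, and the treated group was 3 mice given recombinant human thrombomodulin (rhTM) at the same times. Thrombomodulin is an endothelial receptor that turns thrombin towards the activation of the anticoagulant protein C. Hearts were taken 30 h after LPS. No heart of a mouse without LPS was analysed here, so the comparison is between endotoxaemic hearts with and without rhTM, after a fast that both groups shared.

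The mitochondrial pyruvate carrier brings pyruvate into the matrix, where the pyruvate dehydrogenase complex converts it to acetyl-CoA. Kinases switch that complex off by phosphorylation and phosphatases switch it on again. The tricarboxylic acid cycle oxidises the acetyl group and passes electrons to the respiratory chain, the main source of ATP in the beating heart, and endotoxaemia is known to depress oxidative metabolism in heart muscle. Anaplerotic enzymes refill the cycle, and the malate-aspartate shuttle carries reducing equivalents across the inner membrane.

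The promoters of 4 members on which the results below turn are printed here, as the 150 bases before the annotated transcription start on the strand of the gene. They are the member that rose with rhTM (Mdh1), the member that fell (Pcx), and 2 members of the entry step whose arrays stood apart (Pdhb and Mpc2). Capitals mark a CCAAT box or a GC box on either strand, that is CCAAT or ATTGG, and GGGCGG or CCGCCC. The sequences and coordinates are those of RefSeq on GRCm38.p6, whereas the array grid is of build mm9.
Mdh1, chr11:21571935-21572084, minus strand: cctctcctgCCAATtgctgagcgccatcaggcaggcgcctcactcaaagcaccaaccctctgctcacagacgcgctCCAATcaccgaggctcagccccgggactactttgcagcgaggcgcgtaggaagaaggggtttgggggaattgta
Pdhb, chr14:8172993-8173142, minus strand: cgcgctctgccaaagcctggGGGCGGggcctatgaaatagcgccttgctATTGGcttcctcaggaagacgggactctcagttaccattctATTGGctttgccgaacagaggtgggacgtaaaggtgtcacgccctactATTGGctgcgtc
Mpc2, chr1:165461110-165461259, plus strand: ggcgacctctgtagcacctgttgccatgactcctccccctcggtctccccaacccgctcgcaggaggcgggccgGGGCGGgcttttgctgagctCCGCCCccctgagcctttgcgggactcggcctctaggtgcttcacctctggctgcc
Pcx, chr19:4510322-4510471, plus strand, the more upstream of its 2 annotated starts: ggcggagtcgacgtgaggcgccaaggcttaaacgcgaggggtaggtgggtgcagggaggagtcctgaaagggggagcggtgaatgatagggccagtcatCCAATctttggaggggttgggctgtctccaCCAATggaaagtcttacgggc

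The stretch of Pdhb held 3 CCAAT boxes and 1 GC box, and that of Mpc2 held 2 GC boxes and 0 CCAAT boxes. The stretches of Mdh1 and Pcx, which moved in opposite directions, each held 2 CCAAT boxes and 0 GC boxes. Over the whole window of 250 bases before to 50 bases after a start, 31 of the 34 members had a RefSeq promoter, and Idh3a, Me2 and Pdp1 did not. A GC box was found on either strand in 22 of the 31 (71.0%), against 38.2% of all 27025 genes with a promoter in the table. The 22 included Mdh1 and Pcx, whose printed stretches held 0. A CCAAT box was found in 20 of the 31 (64.5%), against 41.1% of all genes. The half-site AGGTCA, which nuclear receptors such as the estrogen-related receptors can bind, was found in 9 of the 31 (29.0%), against 18.1% of all genes. The extended estrogen-related receptor motif TNAAGGTCA, which contains that half-site, was found in 0 of the 31, against 1.43% of all genes. These are matches of letters in a fixed window, and no share was taken over the genes tested here. A gene was counted if any of its windows held the motif, with 42 windows for the 31 members and 32851 for all 27025 genes.

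Levels are on the log2 scale and relative to the 75th percentile of the processed signal of their array, so that a difference of 1 is a 2-fold change, and a difference is rhTM minus saline. Saline 1 and 2 were hybridised on slide 1, and saline 3 shared slide 2 with all 3 rhTM arrays. Every difference was therefore also taken within slide 2, as the mean of the rhTM arrays minus saline 3, which rests on 1 saline mouse and equals the estimate with the slide as a block. On each array 54.8% to 62.8% of 59305 spots were well above background and 0 were saturated, and none of the 34 genes was dim on any array. The slides differed in signal and in the linear fit of the spike-in controls. The R2 of that fit was 0.990 and 0.987 on slide 1, 0.845 in saline 3 and 0.865 to 0.881 in the rhTM arrays. The 75th percentile was 732 and 671 on slide 1, 394 in saline 3 and 412 to 466 in the rhTM arrays. Saline 3 was the lowest array on both, and in the share of spots above background. Over all genes tested, the arrays of rhTM 1 and 2 were the most alike (r = 0.994), and saline 3 was closest to rhTM 3 (r = 0.965).

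Cytosolic malate dehydrogenase (Mdh1) was the only member called higher with rhTM and pyruvate carboxylase (Pcx) the only one called lower, at an adjusted p under 0.05 in limma over all genes tested. Most of the other members had a higher mean with rhTM without passing that threshold. Among all genes tested, 2.75% were called higher (405 genes) and 2.41% lower (355 genes), or 483 and 268 when arrays were centred on their median. The count of 1 of 34 in each direction is near that background. The mean was higher with rhTM in 26 of the 34 members and lower in 8, against 50.8% of all genes higher. With quantile normalization 22 were higher, and Cs, Idh3g, Ogdh and Pdha1 changed sign. The median difference of the members was 0.38, against 0.01 for all genes tested. Within slide 2 the median was 0.66, against -0.0025 for all genes, again with 26 members higher and 8 lower (49.8% of all genes higher), but no member was called there (3.83% of all genes were called higher and 1.95% lower). At an unadjusted p under 0.05, 8 members were higher and 1 lower, against 15.1% and 15.6% of all genes, and within slide 2 13 were higher and 1 lower, against 16.3% and 14.5%. In whole heart RNA, fewer cells of a type and less RNA per cell cannot be told apart.

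The arrays did not separate cleanly by treatment. The median deviation of the members from each gene's mean over the 6 arrays was -0.051, -0.077 and -0.48 in saline 1, 2 and 3, against 0.37, 0.34 and -0.12 in rhTM 1, 2 and 3. Saline 3 was therefore the lowest array and rhTM 3 lay just under saline 1 and 2. Saline 3 was the lowest of the 6 arrays for 18 members (23.8% of all genes), and rhTM 3 was the lowest rhTM array for 27 (44.7% of all genes). All 3 rhTM arrays lay above saline 3 for 23 members (37.1% of all genes) and below it for 8 (37.2%). The arrays of rhTM 1 and 2 both lay above saline 1 and 2 for 22 members (40.6% of all genes). The saline and rhTM arrays did not overlap for 11 members, with rhTM higher in 9 (17.0% of all genes) and lower in 2 (18.7%).

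**Figure D1:**
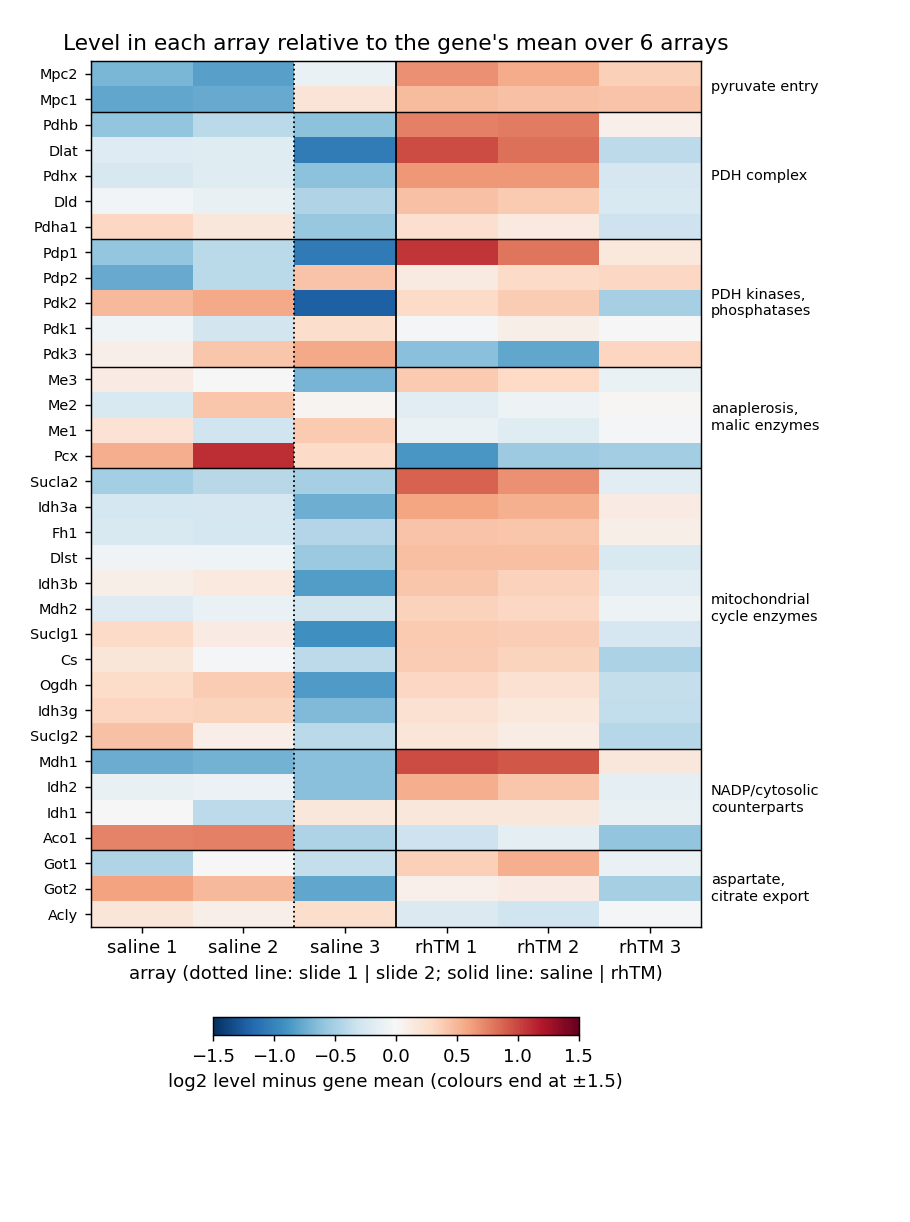
Level of each of the 34 genes in each array, as the log2 level minus the gene's mean over 6 arrays, with genes grouped by role, a dotted line between the slides and a solid line between the groups. The columns of rhTM 1 and 2 are above the mean for most genes, with medians of 0.37 and 0.34, saline 3 has the lowest median, -0.48, and Pcx runs the other way.

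Both subunits of the mitochondrial pyruvate carrier, which together form the carrier in the inner membrane, had every rhTM array above every saline array. So did 17.0% of all genes, and neither subunit passed the test. Mpc2 was at 5.51, 5.37 and 6.09 in saline 1, 2 and 3 and at 6.88, 6.75 and 6.54 in rhTM 1, 2 and 3. Saline 3 was the highest saline array and still lay below the lowest rhTM array. The difference of Mpc2 was 1.07 ± 0.25 (SE of the fit; limma adjusted p = 0.0570), and 0.63 within slide 2. Mpc1 was at 6.42, 6.44 and 7.40 in the saline arrays and at 7.68, 7.64 and 7.63 in the rhTM arrays. Here the 2 saline arrays of slide 1 were low and saline 3 lay close under the rhTM arrays. Its difference was 0.89 ± 0.30 (limma adjusted p = 0.113) over all arrays and 0.25 within slide 2, so its size depended on which saline arrays were used.

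All 5 genes of the pyruvate dehydrogenase complex had a higher mean with rhTM (50.8% of all genes) and none passed the test. At an unadjusted p under 0.05 in limma 1 was higher, near the background of 15.1% of all genes. Saline 3 was the lowest of the 6 arrays for each of the 5 (23.8% of all genes). Pdhb, the beta subunit of the decarboxylating component E1, was at 5.57, 5.75 and 5.54 in saline 1, 2 and 3 and at 6.91, 6.93 and 6.23 in rhTM 1, 2 and 3. It was the only gene of the complex whose groups did not overlap (17.0% of all genes were apart with rhTM higher). Its difference was 1.07 ± 0.25, a 2.10-fold higher level (limma adjusted p = 0.0561), and 1.15 within slide 2. Pdha1, the E1 alpha subunit that carries the regulatory phosphorylation sites, was at 5.21, 5.08 and 4.34 in saline and at 5.16, 5.05 and 4.59 in rhTM. Its groups overlapped almost wholly, with a difference of 0.062 ± 0.30 (limma adjusted p = 0.903). Dlat, the acetyltransferase core E2, had a difference of 0.95 ± 0.44 (limma adjusted p = 0.192), and saline 3 at 1.56 and rhTM 3 at 2.21 both lay under the other arrays of their group. Pdhx, which tethers the E3 component to the core, differed by 0.69 ± 0.30, and Dld, the E3 dehydrogenase shared with the 2-oxoglutarate dehydrogenase complex, by 0.40 ± 0.25.

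The kinases and phosphatases of the complex did not move as 1 group. Pdp1, the phosphatase catalytic subunit that reactivates the complex, was at 0.29, 0.47 and -0.20 in saline 1, 2 and 3 and at 1.94, 1.67 and 1.03 in rhTM 1, 2 and 3. The groups did not overlap, and saline 3 was the lowest array. Its difference was 1.36 ± 0.31, a 2.57-fold higher level that missed the threshold (limma adjusted p = 0.0543) and passed it with the replicate number as a block (limma adjusted p = 0.0445). It was the only member called with that block, which called 2.43% of all genes higher and 1.65% lower. Within slide 2 it was 1.75 (limma adjusted p = 0.0579). Its second probe, designed on another transcript accession, differed by only 0.08. Pdp2, the other phosphatase, had its lowest levels in saline 1 and 2 (4.36 and 4.70), while saline 3 was at 5.54 and the rhTM arrays at 5.24 to 5.42. Its difference was therefore 0.49 ± 0.32 over all arrays and -0.18 within slide 2.

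Pdk2, a widely expressed pyruvate dehydrogenase kinase, was at 4.01, 4.08 and 2.29 in saline 1, 2 and 3 and at 3.80, 3.89 and 3.01 in rhTM 1, 2 and 3. Saline 3 stood far below every other array. The difference was 0.11 ± 0.53 (limma adjusted p = 0.904) over all arrays and 1.27 within slide 2, where it was not called (limma adjusted p = 0.0977). Pdk1, a kinase known as a target of the hypoxia response, differed by 0.047 ± 0.20, and its 4 probes ranged from -0.56 to 0.51. Pdk3, a further kinase isoform, had a difference of -0.72 ± 0.33 (limma adjusted p = 0.192), with saline arrays from -2.77 to -2.29 and rhTM 3 among them at -2.53.

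Pcx fell with rhTM. Pyruvate carboxylase makes oxaloacetate from pyruvate and so refills the cycle. Its probe, A_55_P2008599, was at 2.29, 2.85 and 2.03 in saline 1, 2 and 3 and at 0.86, 1.19 and 1.21 in rhTM 1, 2 and 3. Every rhTM array lay below every saline array, by at least the gap between saline 3 and rhTM 3. The means were 2.39 ± 0.42 (SD, n = 3) and 1.09 ± 0.20 (SD, n = 3), a difference of -1.30 ± 0.26 or a 2.47-fold lower level (limma adjusted p = 0.0457). Within slide 2 the difference was -0.94 and not called (limma adjusted p = 0.103), and blocking on the mouse number gave a limma adjusted p of 0.0554. The call was lost when any single array but saline 3 was left out, with adjusted p = 0.156 and 0.109 without saline 1 and 2, and 0.202, 0.208 and 0.0648 without rhTM 1, 2 and 3.

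The malic enzymes, which convert malate to pyruvate, overlapped between the groups. Me3, a mitochondrial NADP-dependent form, differed by 0.39 ± 0.28, the mitochondrial NAD-dependent Me2 by -0.16 ± 0.22, and the cytosolic Me1 by -0.20 ± 0.23. Within slide 2 the values were 0.90, -0.12 and -0.49. The signs were thus the same on both readings, and limma adjusted p-values over all arrays ran from 0.371 to 0.647.

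Of the 11 mitochondrial enzymes of the cycle itself, 10 had a higher mean with rhTM (50.8% of all genes). All 11 were higher within slide 2 (49.8% of all genes), but none passed the test in either fit. At an unadjusted p under 0.05 in limma, 3 were higher over all arrays (15.1% of all genes). Their median deviation was 0.083, -0.024 and -0.56 in saline 1, 2 and 3, against 0.40, 0.35 and -0.23 in rhTM 1, 2 and 3. As for the members at large, rhTM 3 was the lowest rhTM array, here for every one of the 11. In 4 of them, Idh3a, Sucla2, Fh1 and Mdh2, the groups did not overlap (17.0% of all genes).

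Idh3a, the catalytic subunit of the NAD-dependent isocitrate dehydrogenase that sets a pace-making step of the cycle, was at 4.74, 4.74 and 4.26 in saline 1, 2 and 3 and at 5.59, 5.52 and 5.12 in rhTM 1, 2 and 3. The lowest rhTM array was above the highest saline array, and the difference was 0.83 ± 0.23 (limma adjusted p = 0.0816), or 1.15 within slide 2 (limma adjusted p = 0.0551). The other subunits of the same enzyme overlapped between groups, with differences of 0.41 ± 0.33 for Idh3b and 0.0090 ± 0.34 for Idh3g. Both were lowest in saline 3.

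Sucla2, the subunit of succinyl-CoA ligase that makes it form ATP, was at 3.28, 3.37 and 3.29 in the saline arrays and at 4.68, 4.48 and 3.63 in the rhTM arrays. The saline arrays lay within a narrow range, and rhTM 3 was far nearer to them than rhTM 1 and 2 were. The difference was 0.94 ± 0.30 (limma adjusted p = 0.102) and 0.97 within slide 2. Suclg2, the GTP-forming counterpart, differed by -0.089 ± 0.29, and the shared subunit Suclg1 by 0.34 ± 0.37. Within slide 2 these became 0.36 and 1.09, so for Suclg2 the sign depended on the saline arrays used.

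Fumarate hydratase (Fh1), which makes malate from fumarate, was at 5.46, 5.43 and 5.26 in saline 1, 2 and 3 and at 6.13, 6.11 and 5.78 in rhTM 1, 2 and 3. The difference was 0.62 ± 0.19 (limma adjusted p = 0.0949) and 0.75 within slide 2. Mitochondrial malate dehydrogenase (Mdh2), which closes the cycle, was at 8.17, 8.27 and 8.08 in saline and at 8.71, 8.67 and 8.28 in rhTM. Its groups were apart only by the small gap between saline 2 and rhTM 3, and the difference was 0.38 ± 0.20 (limma adjusted p = 0.231).

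Citrate synthase (Cs), the entry enzyme often used as a measure of mitochondrial content, was at 7.48, 7.28 and 6.91 in saline 1, 2 and 3 and at 7.68, 7.63 and 6.82 in rhTM 1, 2 and 3. The array of rhTM 3 was the lowest of all 6, below saline 3. Its difference was 0.16 ± 0.30 (limma adjusted p = 0.744). Ogdh, the decarboxylating component of the 2-oxoglutarate dehydrogenase complex, was at 6.88, 6.99 and 5.76 in saline and at 6.91, 6.84 and 6.24 in rhTM. Only saline 3 and rhTM 3 were low, and the difference was 0.12 ± 0.38 (limma adjusted p = 0.847), or 0.91 within slide 2. Dlst, the succinyltransferase core of that complex, differed by 0.45 ± 0.27.

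**Figure D2:**
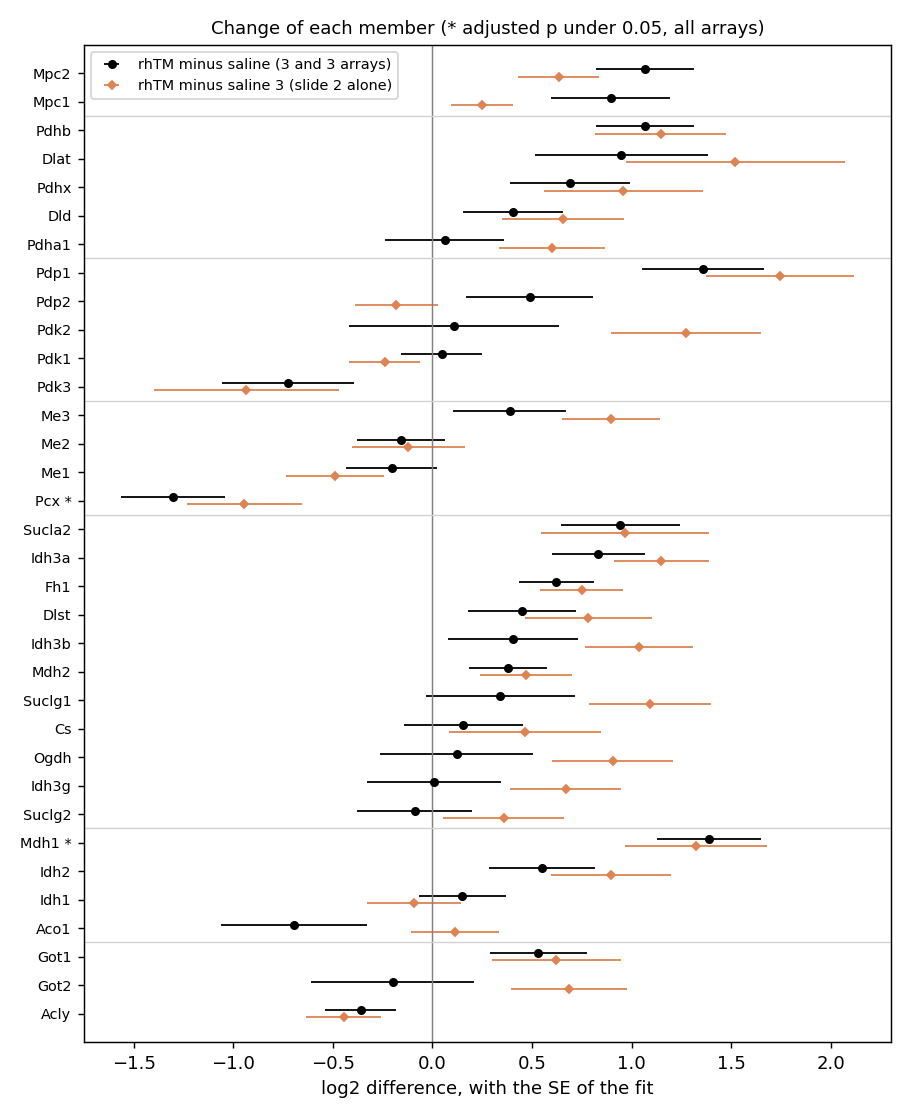
Difference of each of the 34 genes on the log2 scale with the SE of the fit, over all arrays (black circles, 3 against 3) and within slide 2 (orange diamonds, 3 rhTM arrays against saline 3), with genes grouped by role and an asterisk at an adjusted p under 0.05 over all arrays. Mdh1 at 1.39 and Pcx at -1.30 carry the asterisks, and the values within slide 2 lie further right for all 11 cycle enzymes.

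Mdh1 rose with rhTM. This cytosolic malate dehydrogenase works in the malate-aspartate shuttle. Its probe, A_52_P407796, was at 6.28, 6.31 and 6.40 in saline 1, 2 and 3 and at 8.01, 7.96 and 7.20 in rhTM 1, 2 and 3. The saline arrays of both slides lay close together, and rhTM 3 stood between them and the other rhTM arrays. The means were 6.33 ± 0.061 (SD, n = 3) and 7.72 ± 0.46 (SD, n = 3), a difference of 1.39 ± 0.26 or a 2.62-fold higher level (limma adjusted p = 0.0427). Within slide 2 the difference was nearly as large, 1.32, but not called (limma adjusted p = 0.0850), and blocking on the mouse number gave a limma adjusted p of 0.0557. The call was lost without saline 1 or 2 (adjusted p = 0.155 and 0.114) and without rhTM 1 or 2 (adjusted p = 0.186 and 0.209).

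The second Mdh1 probe was at 6.28, 6.24 and 4.82 in saline 1, 2 and 3 and at 6.77, 6.68 and 5.75 in rhTM 1, 2 and 3. On that probe saline 3 and rhTM 3 were low and the groups overlapped, with a difference of 0.62 over all arrays and 1.58 within slide 2. The other genes beside the cycle did not pass the test. Idh2, the mitochondrial NADP-dependent isocitrate dehydrogenase that supplies NADPH, differed by 0.55 ± 0.27 (limma adjusted p = 0.210), and its cytosolic counterpart Idh1 by 0.15 ± 0.22. Aco1, cytosolic aconitase that doubles as an iron-responsive regulator, was at 2.25 and 2.26 in saline 1 and 2, 1.04 in saline 3 and 0.92 to 1.36 in the rhTM arrays. Its difference of -0.70 ± 0.37 became 0.11 within slide 2.

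Among the genes of aspartate and citrate export, Acly had its groups apart and none passed the test. ATP citrate lyase (Acly) splits exported citrate into acetyl-CoA for lipid synthesis. It was at 2.73, 2.64 and 2.82 in saline 1, 2 and 3 and at 2.34, 2.25 and 2.53 in rhTM 1, 2 and 3. The difference was -0.36 ± 0.18 (limma adjusted p = 0.215), with rhTM 3 again the rhTM array nearest to saline. Got1, the cytosolic aspartate aminotransferase of the shuttle, differed by 0.53 ± 0.24 (limma adjusted p = 0.192), and mitochondrial Got2 by -0.20 ± 0.41, which became 0.68 within slide 2.

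**Figure D3:**
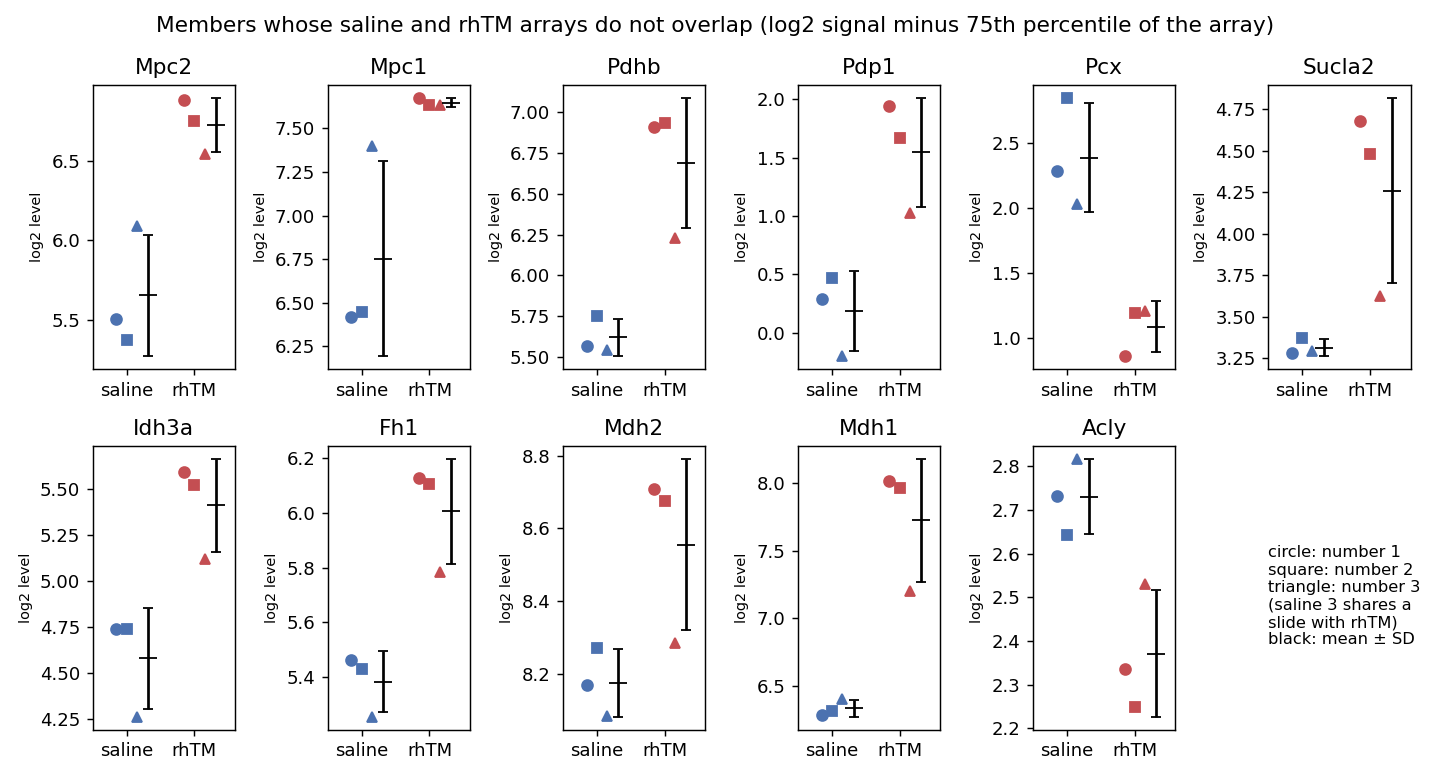
Levels of the 11 genes whose saline (blue) and rhTM (red) arrays do not overlap, in log2 units relative to the 75th percentile of the array, each panel on its own scale, with the mean ± SD in black and marker shapes for the mouse numbers. Only Pcx and Acly are lower with rhTM, and the rhTM 3 triangle is the rhTM value nearest to saline in all panels, although the rhTM values of Mpc1 lie close together.

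By place in the cell, 23 of the 28 mitochondrial members had a higher mean with rhTM, with a median difference of 0.40. Of the 6 cytosolic members 3 did, with a median of -0.026, against 50.8% of all genes higher. This is a description of the members chosen, and the difference between both kinds was not tested.

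Ratios of related genes within an array do not depend on the scaling of the array. Of 12 such pairs, 6 had saline and rhTM ratios that did not overlap, each with p = 0.1 in an exact two-sided permutation test. That is the smallest p that 3 against 3 allows, and it was 0.2 after Benjamini-Hochberg adjustment over the 12 pairs. Among single genes, 17.0% had groups apart with rhTM higher and 18.7% with rhTM lower. No such share was computed for gene ratios, and the ratios that share Idh3a are not independent. The log2 ratio of Mdh2 to Mdh1 was 1.89, 1.95 and 1.68 in saline 1, 2 and 3, against 0.70, 0.71 and 1.08 in rhTM 1, 2 and 3. It was thus lower with rhTM by 1.01 on all arrays and by 0.85 within slide 2. The ratio of Suclg2 to Sucla2 differed by -1.03, and those of Idh3g and Idh3b to Idh3a by -0.82 and -0.43. The ratio of Pdp1 to Pdk2 differed by 1.25 and that of Pdhb to Pdha1 by 1.01. Within slide 2 these 5 ratios kept their sign, at -0.61, -0.48, -0.11, 0.47 and 0.55. With the mean of all probes of a gene, the ratio of Mdh2 to Mdh1 differed by -0.63 and that of Pdp1 to Pdk2 by 0.61, so the size of both depended on the probe. In the deposited table the ratio of Idh3g to Idh3a differed by -0.52.

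The other 6 pairs overlapped between the groups. The ratio of Me3 to Me1 differed by 0.59 (exact permutation p = 0.2), and that of Idh2 to Idh1 by 0.40 (exact permutation p = 0.3). The ratio of Mpc2 to Mpc1 differed by 0.17 and that of Acly to Cs by -0.52 (both with an exact permutation p = 0.3). The ratio of Got2 to Got1 differed by -0.73 (exact permutation p = 0.4) and that of Pdk2 to Pdk1 by 0.062 (exact permutation p = 1). Saline 3 stood apart in the last pair, at -0.83 against 1.21 and 1.49 in saline 1 and 2.

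The choice of probe mattered for several members. There were 53 probes for the 34 genes, 50 of them well above background on all 6 arrays, and 16 genes had more than 1. For Aco1, Got1, Idh3g, Pdk1 and Suclg2 the probes of 1 gene had differences of opposite sign. The second Got1 probe differed by -0.24 and the second Mpc1 probe by 0.40. A second Acly probe was not well above background on 5 of the 6 arrays. Pcx, Pdhb, Mpc2, Idh3a, Sucla2, Fh1 and Mdh2 had 1 probe each, so their values have no second reading.

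**Figure D4:**
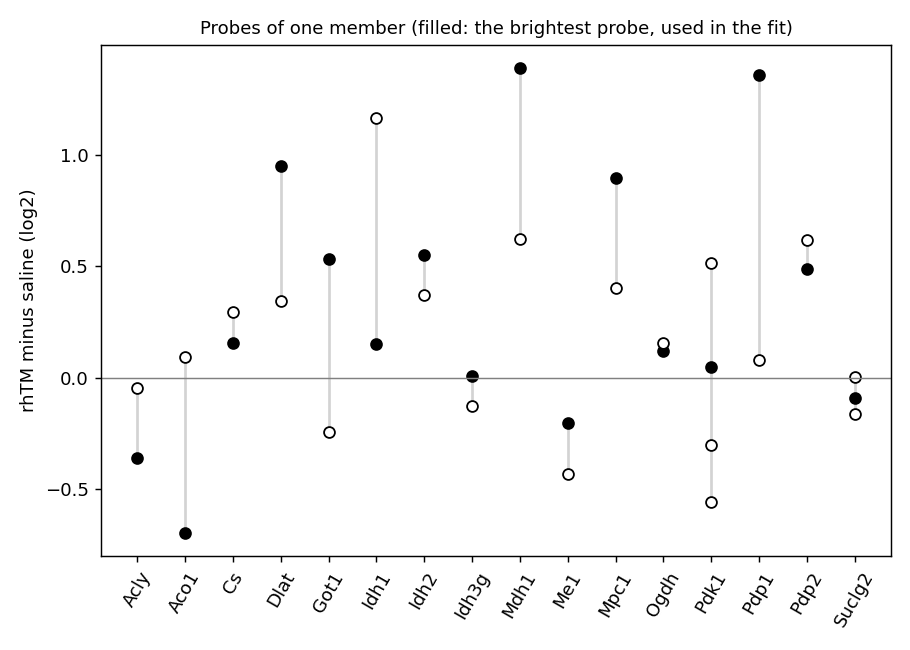
Difference between rhTM and saline on the log2 scale for every probe of the 16 genes with more than 1 probe, with the brightest probe, used in the fit, as a filled circle. The 2 probes of Mdh1 lie at 1.39 and 0.62 and those of Pdp1 at 1.36 and 0.08, and 5 genes have probes on both sides of 0.

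Of 51 other genes of pyruvate, citrate and related metabolism on a list set beside the members, 47 were tested, and 1 was called higher and 0 lower, against 2.75% and 2.41% of all genes. Within slide 2, 2 were called higher (Ppargc1a and Gpt) and 0 lower, against 3.83% and 1.95% of all genes. These counts are near the background. At an unadjusted p under 0.05, 10 were higher and 4 lower in limma, against 15.1% and 15.6% of all genes, and within slide 2 17 were higher and 2 lower, against 16.3% and 14.5%. Their median difference was 0.18 over all arrays and 0.43 within slide 2. Of the 47, 27 had a higher mean (50.8% of all genes) and 20 a lower one. The gene called over all arrays was Sdhd, a membrane anchor of succinate dehydrogenase, which oxidises succinate in the cycle. It was at 5.98, 5.86 and 6.28 in saline 1, 2 and 3 and at 7.13, 6.998 and 6.82 in rhTM 1, 2 and 3. No arrays overlapped, and the difference was 0.94 ± 0.20 (limma adjusted p = 0.0495). It was not called within slide 2 (0.70; limma adjusted p = 0.0896) or with the replicate number as a block (limma adjusted p = 0.0706). The flavoprotein subunit Sdha of the same complex differed by 0.18 ± 0.28.

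Of the listed regulators of oxidative genes, 1 was called within slide 2, where 3.83% of all genes were called higher. Ppargc1a, the coactivator PGC-1alpha that drives oxidative gene expression, was at 2.52, 2.58 and 0.62 in saline 1, 2 and 3 and at 3.44, 3.43 and 2.83 in rhTM 1, 2 and 3. The groups did not overlap, and saline 3 was far below the rest. Its difference was 1.32 ± 0.55 (limma adjusted p = 0.161) over all arrays, and 2.61 within slide 2, where it was called (limma adjusted p = 0.0261). Esrrg, an estrogen-related receptor that acts with PGC-1alpha, was at 0.71, 0.86 and 0.13 in saline and at 1.98, 2.04 and 1.12 in rhTM. Its difference of 1.15 ± 0.33 was not called (limma adjusted p = 0.0861), but it was with the replicate number as a block (limma adjusted p = 0.0466). Esrra, its relative, differed by 0.72 ± 0.21 (limma adjusted p = 0.0866), with groups apart. Within slide 2 the values of Esrrg and Esrra were 1.58 and 0.86. The listed regulators Ppargc1b, Esrrb and Nrf1 overlapped between the groups, with differences of 0.42 ± 0.53, 0.70 ± 0.49 and -0.093 ± 0.19. Their values within slide 2 were 1.40, 1.76 and -0.33.

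Gpt, an alanine aminotransferase that links alanine and pyruvate, was at 2.20, 2.90 and -0.25 in saline 1, 2 and 3 and at 3.20, 3.12 and 2.07 in rhTM 1, 2 and 3. It was called within slide 2 (difference 3.05; limma adjusted p = 0.0419), where saline 3 was the lowest array, and not over all arrays (1.18 ± 0.81; limma adjusted p = 0.347). The second Gpt probe differed by only 0.53 over all arrays and 0.72 within slide 2, so the size of the Gpt difference depended on the probe. Pdk4, the pyruvate dehydrogenase kinase known for its rise in fasting, was at 6.51, 2.95 and 6.25 in saline and at 4.05, 2.62 and 2.86 in rhTM. Saline 2 lay with the rhTM arrays, and the difference of -2.06 ± 0.97 did not pass (limma adjusted p = 0.201).

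Lactate handling overlapped between the groups. Ldha and Ldhb, the muscle-type and heart-type subunits of lactate dehydrogenase, differed by 0.070 ± 0.17 and 0.50 ± 0.41, and the lactate carrier Slc16a1 by 0.23 ± 0.27. Slc16a3, the lactate exporter of glycolytic cells, was at 1.40, 2.48 and 2.62 in saline 1, 2 and 3 and at -1.10, -0.83 and 1.53 in rhTM 1, 2 and 3. Only rhTM 3 reached the saline range, and the difference was -2.30 ± 0.73 (limma adjusted p = 0.104). Acod1, which makes the immunometabolite itaconate from the cycle intermediate aconitate in activated macrophages, was at 0.51, 1.69 and 1.24 in saline and at -4.11, -5.43 and 2.00 in rhTM. The rhTM mice were split, since rhTM 3 was the highest of all 6 arrays, and the probe was well above background on 2 of the 3 rhTM arrays (limma adjusted p = 0.217).

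**Figure D5:**
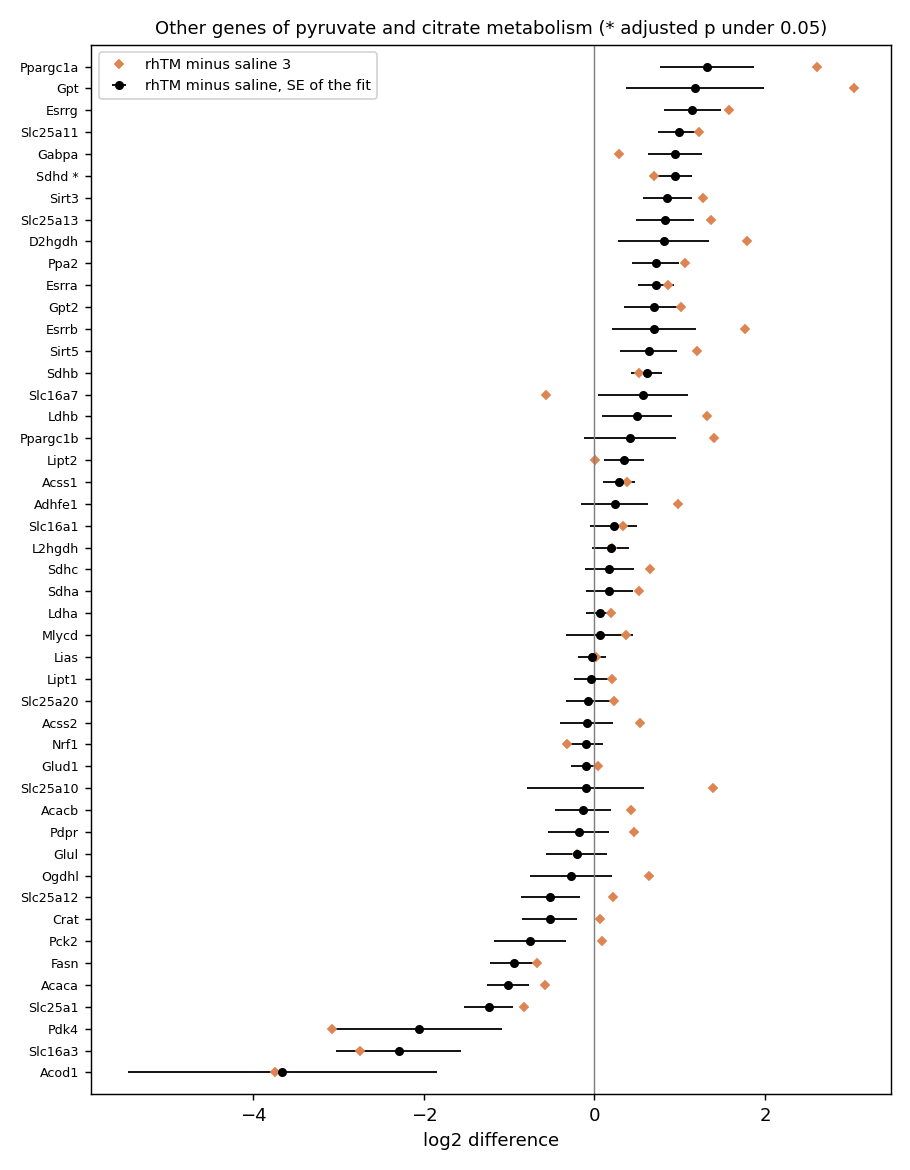
Difference of the 47 other metabolic genes tested, on the log2 scale with the SE of the fit over all arrays (black circles) and within slide 2 (orange diamonds), sorted by the first. Sdhd at 0.94 carries the asterisk, Ppargc1a and Gpt reach 2.61 and 3.05 within slide 2, and Acod1 has the lowest value and the widest bar.

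Markers of cell types moved beside these genes, and their part in the results was not tested. All 10 cardiomyocyte markers were well above background on every array, as the heart label requires. Of these 10, 7 had a higher mean with rhTM (50.8% of all genes), and Ryr2, Actn2 and Ckm had a slightly lower one. The 1 called higher (2.75% of all genes) was Pln, the calcium pump regulator phospholamban (limma adjusted p = 0.0478). The median difference of the 10 was 0.49, against 0.38 for the members. Their summed level ran from 10.8 to 11.3 in saline and from 11.3 to 11.8 in rhTM, with saline 3 lowest. Of the 6 tested neutrophil markers, 0 were called and all overlapped between the groups, and Csf3r had a slightly higher mean with rhTM (0.18). Their median difference was -3.46. Their summed level ran from 7.08 to 10.0 in saline, highest in saline 3, and from 6.41 to 8.92 in rhTM, highest in rhTM 3. Ly6g had no matched probe. Of the 8 macrophage markers, 5 had a higher mean with rhTM and 0 were called, with a median difference of 0.28. Their summed level was lower with rhTM (6.05 to 6.74, against 6.89 to 7.45 in saline). That sum mainly follows Ly6c2, the marker of highest level (mean 6.98 in saline), which differed by -1.38 and was not called (limma adjusted p = 0.0631). Ccr2 went the other way, by 2.82, with groups apart, and was not called (limma adjusted p = 0.0535). Its probe was well above background on 1 saline and 3 rhTM arrays. Fat also expresses Pcx and Acly strongly, and a part of adipocytes in their values was not tested. Of 7 adipocyte markers, Adipoq, Plin1 and Ucp1 were well above background on 0 arrays and Cidec on 1. The 3 tested were summed to 6.70 to 7.88 in saline and 7.19 to 7.54 in rhTM, and 0 were called. That sum mainly follows Fabp4 (difference -0.011), while Cidea differed by -0.29 and the dimmer Retn by -0.86.

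Of the other lists, endothelial, fibroblast, T and NK cell and erythroid markers had 0 genes called. Their summed levels overlapped between the groups, from 6.47 to 6.72 in saline and 6.31 to 6.48 in rhTM for the endothelial list and from 7.59 to 7.72 and 7.59 to 8.09 for the fibroblast list. The erythroid list ran from 7.42 to 8.72 and 6.88 to 8.48, and the T and NK cell list from 0.14 to 0.77 and 0.51 to 1.40. Of the skeletal muscle list, 4 of 6 markers were tested and 1, Myh4, was called higher. Its probe was well above background on 0 saline and 3 rhTM arrays, so it was tested through the group where it is high. The summed level of the list ran from 0.64 to 2.98 in saline and 0.72 to 1.83 in rhTM.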

How the data were processed

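Each of the 6 scanner files holds processed-signal intensity values as deposited, background-corrected by Agilent Feature Extraction 10.7.3.1 on an mm9 grid per the file headers (the submitters' processing notes name version 9.1). The authors also deposited a table of log2 values, of unstated scale and centring, which served as an alternative. The median of a column was -0.020, -0.16 and 0.096 in the 3 saline arrays, by number, against -0.081, 0.027 and 0.085 in the 3 rhTM arrays. Its offset from the scaled scanner values varied over probes with an SD of 0.825 between arrays of different slides and at most 1.89e-05 within a slide. Controls were dropped, as were the 368 probes of 56605 that carried outlier flags. Probes were named through their accession in a RefSeq table of GRCm38.p6 (32789 matched a symbol, 23448 did not). Signals were scaled to the array's 75th percentile and put on the log2 scale, and a gene was represented by its probe of highest mean. A gene entered the test where its probe was above background in the whole of either group. The test was limma 3.58.1 in R 4.3.3 and Benjamini-Hochberg adjustment over 14701 genes, with no covariate. Groups came from the sample titles, which name separate mice, and the number of arrays limits the precision.

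The counts and the differences of the members and of 12 other metabolic genes were recomputed with the slide or the replicate number as a block, other scalings, background corrections, filters, probes and array weights, the deposited table, and each array left out. The gene ratios were recomputed with quantile normalization, normexp, the mean of all probes, the deposited table and each array left out, and the genes in the closing observations were not. The files hold a median but no mean signal, so the normexp background correction (offset 50) used the median signal, an alternative added after seeing the data. Same-numbered mice deviated together (r = 0.319, 0.235 and 0.372 over all genes), and the rule used here took this as pairing. However, rhTM 2 correlated more with saline 1 (r = 0.314), so the correlations do not clearly separate numbers 1 and 2. The labels name no shared litter or day. Whether the mice were paired is therefore not known. The main test ignored the numbers, and the replicate block was an alternative. Per-array values are given for members and listed metabolic genes that passed in any of the 3 fits, for members whose groups did not overlap, and for some regulatory genes. A further 2 genes of the metabolic list were left out of its counts and are not reported here. The members and lists were chosen with earlier results of these data known. The limma steps were tested on simulated data.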

Additional observations from a re-analysis of the deposited data

How the results depend on the processing

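Of 34 members, 21 kept the sign of their difference under all 16 alternatives and 13 did not, and the cause was not tested. Members called higher numbered 0 with the slide as a block, quantile normalization, no filter on dim probes or the mean of all probes, 2 with normexp, 3 with median centring, 16 with array weights and 19 in the deposited table. Members called lower numbered 0 with the slide or replicate block, normexp or no filter, and 4 with array weights or the deposited table. Leaving out 1 array gave 0 to 8 higher and 0 to 2 lower. The 8 and 2 came without saline 3, where 3007 of all 14701 genes were called higher and 2808 lower. Without rhTM 3, 4 members were called higher and 0 lower, against 382 and 512 of all genes. Members with groups apart were 21 higher and 5 lower in the deposited table and 1 lower with the mean of all probes, and 9 to 19 higher and 2 to 6 lower with 1 array left out. The share of all genes with groups apart was taken in the main setting alone (17.0% higher and 18.7% lower). These counts therefore have no background beside them and are not read as a result about the members. The median difference was 0.66 with the slide block and 0.72 in the deposited table. Over all genes, 207 higher and 222 lower were called with normexp, 132 and 19 with no filter, 2205 and 2314 in the deposited table, 4663 and 4581 with array weights, and 0 to 3007 and 0 to 2808 with 1 array left out. Quantile normalization called 333 of all genes higher and 395 lower, and the mean of all probes 355 and 273. The deposited table has a different baseline per probe on each slide (SD of the difference 0.825).

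The sign turned with the slide block for Aco1 (0.11), Idh1 (-0.092), Suclg2 (0.36), Pdk1 (-0.24), Pdp2 (-0.18) and Got2 (0.68). It turned with quantile normalization for Cs (-0.099), Idh3g (-0.16), Ogdh (-0.070), Pdha1 (-0.010) and Ldha (-0.20), and with the mean of all probes for Idh3g (-0.059), Pdk1 (-0.074), Sdha (-0.046), Ldha (-0.19) and the ratio of Idh2 to Idh1 (-0.20). It turned with array weights for Idh3g (-0.15), Ogdh (-0.058), Pdha1 (-0.077), Pdk2 (-0.13) and Ldha (-0.048). In the deposited table it turned for Suclg2 (0.37), Pdk1 (-0.40) and Got2 (0.55). With 1 array left out, the ranges that crossed 0 were -0.0098 to 0.27 (Idh1), -0.32 to 0.20 (Idh3g), -0.27 to 0.35 (Ogdh), -0.034 to 0.57 (Suclg1), -0.31 to 0.11 (Suclg2), -0.21 to 0.23 (Pdha1), -0.078 to 0.19 (Pdk1), -0.47 to 0.42 (Pdk2), -0.31 to 0.013 (Me2), -0.64 to 0.051 (Got2) and -0.66 to 0.50 (the ratio of Pdk2 to Pdk1). With the replicate block the calls of Mdh1, Pcx and Sdhd were lost and those of Pdp1 and Esrrg gained, and no other call among the members and listed metabolic genes changed. Over 16 alternatives the limma adjusted p ran from 2.51e-04 to 0.209 for Mdh1 and from 7.95e-04 to 0.208 for Pcx, each called in 7. With the slide as a block, saline 3 was taken to vary like the other arrays.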

Other observations

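A carrier and 2 enzymes of citrate export and fatty acid synthesis had lower means with rhTM, and none was called. They were picked after their values were seen and stand for no list. The citrate carrier Slc25a1 was at -0.13, -0.36 and -0.87 in saline 1, 2 and 3 and at -1.91, -1.93 and -1.26 in rhTM 1, 2 and 3, a difference of -1.24 ± 0.29 (limma adjusted p = 0.0581). Its groups did not overlap, but its second probe differed by 0.29. Acetyl-CoA carboxylase (Acaca), which makes malonyl-CoA, was at 0.86, 1.23 and 0.39 in saline and at -0.25, -0.21 and -0.10 in rhTM, a difference of -1.01 ± 0.25 (limma adjusted p = 0.0659). Fatty acid synthase (Fasn) differed by -0.95 ± 0.28 (limma adjusted p = 0.0907). All 3 had every rhTM array below every saline array, as did 18.7% of all genes. Acacb, the other acetyl-CoA carboxylase, overlapped between the groups, at -0.14 ± 0.33 over all arrays and 0.43 within slide 2.

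The carrier Slc25a11, which exchanges malate and 2-oxoglutarate in the same shuttle as Mdh1, was at 5.98, 6.05 and 5.66 in saline 1, 2 and 3 and at 7.11, 7.12 and 6.45 in rhTM 1, 2 and 3. Its difference was 0.99 ± 0.25 (limma adjusted p = 0.0701), with groups apart, and its second probe differed by 0.53. The aspartate-glutamate carrier Slc25a13 differed by 0.83 ± 0.34, with overlapping groups. Slc25a12, the other such carrier, was lower with rhTM on all 3 probes (-0.52, -0.70 and -0.83) and higher within slide 2 (0.22, 0.30 and 0.24), also with overlapping groups on the probe used. The mitochondrial deacetylase Sirt3 differed by 0.86 ± 0.29 and Gabpa, a subunit of the factor NRF2/GABP that acts on respiratory genes, by 0.94 ± 0.31, both with groups apart and neither called (limma adjusted p = 0.112 for each). The other 2 Gabpa probes differed by -0.48 and -0.18, and within slide 2 the probe used differed by 0.29.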
